A study of Oryzias latipes with 4 samples.

Results

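Described here are 4 of the 93896 transcript models in the deposited table, which encode proteins of the small subunit of the cytosolic ribosome: rps18 (model MEDAKA000478), rps25 (MEDAKA005230), rps26 (MEDAKA015230) and rps12 (MEDAKA016669). They were taken by their model identifiers, and their names rest on the position of the models against RefSeq genes of assembly ASM223467v1. The small subunit list used beside them held 40 symbols, of which 25 were matched to a model, these 4 included.

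The small subunit binds the messenger RNA and decodes it, and its proteins surround a core of ribosomal RNA. Ribosomal protein messages are abundant in nearly all cells, and in vertebrates they carry a pyrimidine tract at their start through which nutrient signalling by mTOR controls how many ribosomes they recruit. Ribosome profiling (Ribo-seq) sequences the stretches of message that ribosomes shield from nuclease, so that footprints set against RNA-seq of the same tissue are a relative measure of ribosome occupancy. Footprints fall mainly in coding sequence, whereas the values of both assays here refer to whole models. The coding share of each model is not given in the sources used here. Its part in the differences between assays and between genes was not tested.

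The study profiled female medaka fish (Oryzias latipes) that had been bought from a dealer, held in the condition labelled SD and sampled 16 h after a move to the condition labelled LD. There were 2 groups of 2 libraries, LD RNA-seq and LD Ribo-seq, from 1 dissected block that held ventral telencephalon, hypothalamus and pituitary. Both groups share sex, condition, time and tissue, so the assay is the contrast the design offers. Whether the replicates are separate fish is not stated, so a p-value covers just the spread between libraries and that spread may be technical. Libraries were made with a kit for ribosome profiling of mammalian samples, per the labels. Markers of the tissue were present: snap25 of neurons had 351 and 355 FPKM (fragments scaled to model length and library size by the authors) in the RNA-seq replicates, pomc of the pituitary 247 and 231, and oxt of the hypothalamus 66.2 and 71.0. Each of these 3 marker lists held 5 symbols, of which 3 were matched to a model. All 3 reached a mean FPKM of at least 1 for neurons and hypothalamus, and 2 for the pituitary. The other pituitary marker that did, cga, differed between RNA-seq replicates, at 342 and 159 FPKM. Of 4 symbols for red blood cells 0 were matched, so these cells could not be checked. Since whole tissue was sampled, fewer cells of a type and less RNA per cell cannot be told apart.

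The models of the 4 genes differ in how closely they follow the gene they are named for. rps18 lies on chromosome 11 at 3229229 to 3233680, in a model of 1175 nt. The rps18 gene covers 86.5% of the model's span, and the model overlaps that of vps52 by 85 bp. The RefSeq genes vps52 and ring1 cover 5.5% and 4.65% of the span. rps26, on chromosome 5 at 4003060 to 4005625, has the shortest model, 580 nt. Its gene covers 96.5% of the span, and no other model overlaps it. rps25 lies on chromosome 13 at 25438355 to 25443350 (1238 nt), with a gene that covers 55.5% of the span. The rps25 model overlaps that of trappc4, a vesicle trafficking gene, by 659 bp, and trappc4 had 12.1 and 13.5 FPKM in RNA-seq and 26.4 and 48.6 in Ribo-seq replicates 1 and 2. It also overlaps a further unnamed model by 328 bp, and 16.8% of its span lies in the RefSeq gene sgcg. rps12 lies on chromosome 24 at 14091458 to 14097261 (1308 nt), with 53.9% of the span covered by the rps12 gene. The rps12 model also takes in the whole of another protein-coding RefSeq gene without a symbol, which covers 29.0% of the span, and 3 small nucleolar RNA genes. It overlaps an unnamed model by 151 bp as well. The RefSeq gene eya4 covers 1.84% of its span. rps12 and rps25 are thus the models with the lowest cover among the 25 small subunit genes, whose median was 89.5%. Whether reads were counted by strand is not given in the sources used here. Reads of rps25, trappc4 and sgcg, or of rps18 or rps12 and their neighbours, therefore cannot be told apart.

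RNA levels of the 4 genes were high and close between replicates. rps18 had 93.7 and 90.9 FPKM in RNA-seq replicates 1 and 2. rps26 had 100.9 and 89.3, in the same order. rps12 had 72.0 and 70.9, and rps25 had 64.0 and 69.6. rps18 and rps26 overlapped, and both lay above rps12 and rps25 in each RNA-seq library. Each of the 4 stood above at least 97.9% of the 5698 named tested models in RNA-seq. Within the 25 small subunit genes they were nevertheless in the middle and lower part: rps26 ranked 13, rps18 14, rps12 18 and rps25 20 from the top by mean RNA-seq FPKM. The list ranged from 19.7 to 299 FPKM.

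Footprints separated the same genes further and, as deposited, differed more between replicates. In Ribo-seq replicates 1 and 2, rps18 had 58.2 and 88.8 FPKM. rps26 had 57.6 and 128.5 FPKM, the largest replicate gap among the 4. rps25 had 28.4 and 52.6 FPKM, and rps12 had 31.5 and 48.2. As deposited, replicate 2 was higher than replicate 1 for each of the 4 and for 24 of the 25 small subunit genes. The 2 Ribo-seq libraries differ in scale, and after the scaling described below the count was 20 of the 25. The share over all models was not counted. rps18 and rps26 again lay above the other pair in each library. In Ribo-seq the 4 genes stood above at least 91.6% of the named tested models.

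**Figure D1:**
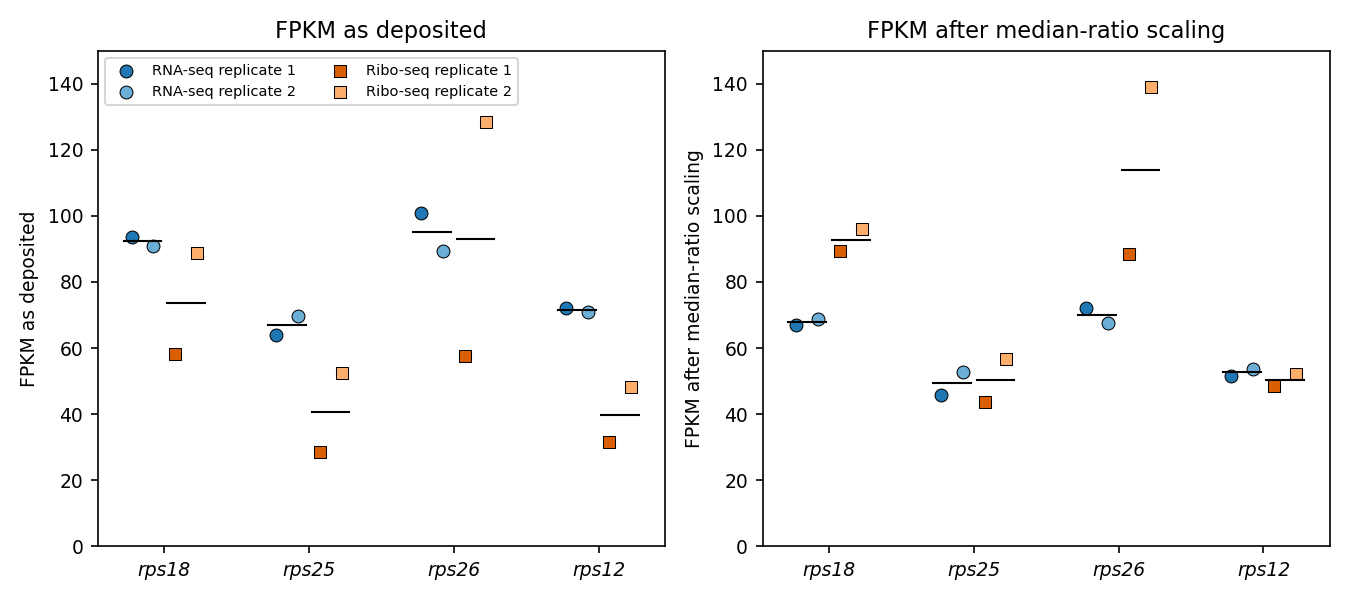
FPKM of rps18, rps25, rps26 and rps12 in the 4 libraries, as deposited (left) and after division by each library's median-ratio factor (right); circles are RNA-seq, squares Ribo-seq, and lines the means of 2 libraries. After scaling, the Ribo-seq replicates of rps18 (89.5 and 96.0) lie above its RNA-seq replicates (67.0 and 68.8), while those of rps25 and rps12 overlap theirs.

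The libraries differ in scale, and each was therefore brought to a common scale with a median-ratio factor (factors 1.40 and 1.32 for RNA-seq replicates 1 and 2, and 0.651 and 0.925 for Ribo-seq replicates 1 and 2). On this scale rps18 averaged 67.9 ± 1.29 FPKM over the RNA-seq libraries and 92.7 ± 4.58 over the Ribo-seq libraries (SD, n = 2). rps26 averaged 69.9 ± 3.21 and 114 ± 35.6, in that order. rps25 had 49.3 ± 4.92 and 50.2 ± 9.28, and rps12 had 52.6 ± 1.58 and 50.3 ± 2.58, in the same order. The assays did not overlap for rps18 and rps26, with Ribo-seq higher, and overlapped for rps25 and rps12. On the deposited scale rps18, rps25 and rps12 did not overlap, with Ribo-seq lower, and rps26 overlapped. The share of all or of named models without overlap was not counted on either scale. Whether lack of overlap sets these genes apart from other models therefore cannot be said, and with so few libraries it can readily arise by chance.

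The reads behind these values could be estimated, although the table holds no counts. Among models of 1 length the same lowest values recur, and over lengths from 540 to 900 nt part of the most frequent ones followed a straight line in each library, as the value of 1 read should. On the line were 48 and 66 of 121 lengths in RNA-seq replicates 1 and 2, and 88 and 58 of 120 in Ribo-seq replicates 1 and 2, so the reads below are estimates that rest on those lengths. Those lengths were picked with an offset from the model's length that was set in advance. The lines implied library totals of about 21790000 and 23350000 reads for RNA-seq replicates 1 and 2, and of about 10350000 and 13370000 for Ribo-seq replicates 1 and 2. On that footing rps26 held 833.5 and 790 reads in RNA-seq and 226 and 651 in Ribo-seq, the fewest of the 4 genes. rps18 held 1989 and 2066 reads in RNA-seq and 587 and 1156 in Ribo-seq. rps12 held 1737 and 1833.5 in RNA-seq and 361 and 713 in Ribo-seq, and rps25 held 1447 and 1686 in RNA-seq and 305 and 729 in Ribo-seq. Of the 16 estimates, 8 fell within 0.02 of a whole number. rps18 and rps25 gave such a value in 1 library each, rps26 and rps12 in 3 each. Counting error (1 SD) was then at most 3.56% of the value in RNA-seq and 2.94 to 6.65% in Ribo-seq.

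Against that error, the scaled Ribo-seq replicates of rps26 and rps25 differed and those of rps18 and rps12 did not detectably. After scaling, replicate 2 of rps26 was 1.57 times replicate 1 in Ribo-seq (95% exact binomial interval 1.35 to 1.83, counting error only). The ratio was 1.30 for rps25 (1.14 to 1.49), 1.07 for rps18 (0.970 to 1.19) and 1.08 for rps12 (0.946 to 1.22). The ratio of rps26 was the highest of the 25 small subunit genes, whose median was 1.16 and lowest value 0.680. rps21 followed at 1.52 and rps28 at 1.46. In RNA-seq the ratio was 1.15 for rps25 (1.07 to 1.24), the only one of the 4 whose interval did not include 1. It was 1.03 for rps18, 0.937 for rps26 and 1.04 for rps12. As deposited, the Ribo-seq ratios were 2.23 for rps26, 1.85 for rps25, 1.52 for rps18 and 1.53 for rps12. The Ribo-seq outcome for rps18 and rps12 thus rests on the scaling factors, which the intervals take as known. The RNA-seq ratios as deposited were 0.885 for rps26, 1.09 for rps25, 0.970 for rps18 and 0.985 for rps12. Which RNA-seq intervals include 1 can therefore depend on the factors too. The intervals compare single libraries and do not cover differences between animals or preparations. Reads without molecular identifiers are not independent molecules.

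**Figure D2:**
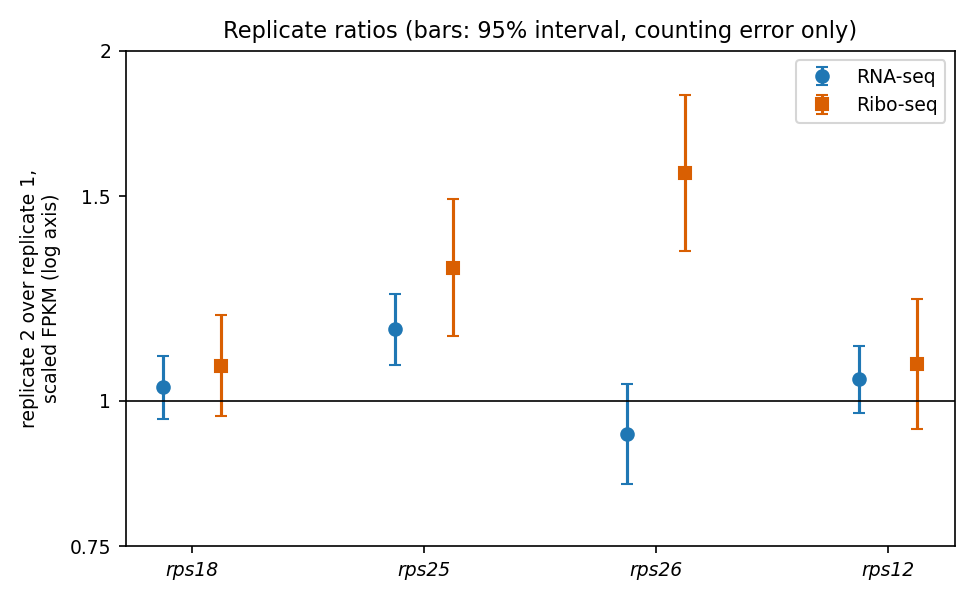
Scaled FPKM of replicate 2 over replicate 1 for each gene (log axis), with 95% exact binomial intervals from the estimated reads, which cover counting error only. Ribo-seq of rps26 is the highest at 1.57, with an interval that overlaps that of rps25, and both assays of rps18 and rps12 include 1.

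Set against RNA, footprints passed the test for rps18 alone. Log2 of scaled FPKM plus 1 was compared between the assays with limma over 50625 models with a mean FPKM of at least 1, with calls made where the Benjamini-Hochberg adjusted p was under 0.05. By this rule 23.9% of all tested models and 52.4% of the named ones were called higher in Ribo-seq, and 33.7% and 6.02% lower, so that 57.6% and 58.4% were called in either direction. Of the 4 genes, 1 was called higher and 0 lower. All 4 were tested, and 1 of 4 is near the share of all models and below that of named ones. rps18, a protein of the head of the small subunit, had a log2 difference (Ribo-seq minus RNA-seq) of 0.44 ± 0.12 (SE; limma, adjusted p = 0.046). Its call was lost with a replicate block (limma, adjusted p = 0.060). It was also lost without any one of the 4 libraries, with differences of 0.39 to 0.49. With 1 library left in an assay, the spread of that assay cannot be estimated, so such outcomes carry little weight. Upper quartile scaling gave 0.19, not called (limma, adjusted p = 0.20).

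rps26, which in yeast and mammals lines the channel where the message leaves the subunit, had the largest difference of the 4, 0.66 ± 0.26 (SE), but missed the threshold (limma, adjusted p = 0.10). Its 95% interval was -0.09 to 1.40. The value rests on Ribo-seq replicate 2. Without that library it was 0.34, and without Ribo-seq replicate 1 it was 0.98. Each of these fits leaves 1 Ribo-seq library, whose spread cannot be estimated, so no call is given for them. rps25, needed for translation from certain viral internal entry sites in yeast and human cells, had a difference of 0.02 ± 0.19 (SE; limma, adjusted p = 0.94; 95% interval -0.53 to 0.57). rps12, a protein of the beak of the subunit that is known in Drosophila for its part in competition between cells, had one of -0.07 ± 0.13 (SE; limma, adjusted p = 0.68; 95% interval -0.42 to 0.29).

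The sign of the difference depended on the scaling for rps18, rps25 and rps26, and rps12 was negative under the 3 scalings tried. With FPKM as deposited the difference was -0.36 for rps18, -0.14 for rps26, -0.77 for rps25 and -0.86 for rps12, and none was called. On that scale 4.79% of all tested models were called higher, 41.8% lower and 46.6% in either direction, against 8.42%, 10.9% and 19.3% of the named ones. The median of all tested models then moved from -0.20 to -0.79 and that of the named models from 0.77 to 0.13, a shift shared by the whole table. Relative to the median of named models, rps18 lay at -0.32 under median-ratio scaling, at -0.38 under upper quartile scaling and at -0.49 as deposited. rps26 lay at -0.11, -0.16 and -0.27 in the same order. rps25 lay at -0.75, -0.80 and -0.90, and rps12 at -0.83, -0.89 and -0.99. Scaling a library shifts all models alike apart from the pseudocount, so these 3 sets of values are nearly 1 measurement and not separate support. Under median-ratio scaling rps25 stood at the 19.6th percentile of the named models and rps12 at the 17.3rd, against the 35.2nd for rps18 and the 45.2nd for rps26. Among all tested models rps25 stood at the 54.9th, rps12 at the 52.9th, rps18 at the 65.8th and rps26 at the 71.8th. Places among the named models depend on the filter. With no filter rps25 stood at the 27.8th percentile, rps12 at the 22.7th, rps18 at the 46.9th and rps26 at the 55.9th. With a mean FPKM of at least 5 they stood at the 10.8th, 9.15th, 21.2nd and 29.0th, in that order.

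Ratios between the genes within a library do not depend on the scale of that library, up to the pseudocount of 1. The ratio of rps18 to rps12 was 1.30 and 1.28 in the RNA-seq replicates and 1.83 and 1.83 in the Ribo-seq replicates, the closest agreement between replicates of the 6 pairs in either assay. The ratio of rps18 to rps25 was 1.45 and 1.30 in RNA-seq and 2.03 and 1.68 in Ribo-seq. The ratio of rps26 to rps12 was 1.39 and 1.25 in RNA-seq and 1.81 and 2.64 in Ribo-seq. These 3 ratios, and that of rps25 to rps26, which was 0.639 and 0.783 in RNA-seq and 0.499 and 0.413 in Ribo-seq, did not overlap between the assays. Relative to rps25 and rps12, rps18 and rps26 thus had higher ratios in each Ribo-seq library than in either RNA-seq library. The mean change of a pair's ratio is the difference between the log2 differences of its genes given above. It is therefore not separate support, and this grouping of the genes was read from the same values.

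The 2 pairs that overlapped were rps18 with rps26 and rps25 with rps12. rps18 over rps26 was 0.929 and 1.02 in RNA-seq and 1.01 and 0.693 in Ribo-seq, where replicate 2 alone put rps26 well above rps18. rps25 over rps12 was 0.891 and 0.982 in RNA-seq and 0.904 and 1.09 in Ribo-seq. On the log2 scale the change of a ratio from RNA-seq to Ribo-seq ran from 0.42 for rps18 over rps25 and 0.51 for rps18 over rps12 to 0.73 for rps26 over rps12, and was -0.64 for rps25 over rps26. With 2 libraries against 2 the two-sided exact permutation test cannot go below p = 0.33, the value of each of the 4 pairs that did not overlap, and over the 6 pairs the adjusted p was 0.50 for each of them. The pairs share genes and are not independent.

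**Figure D3:**
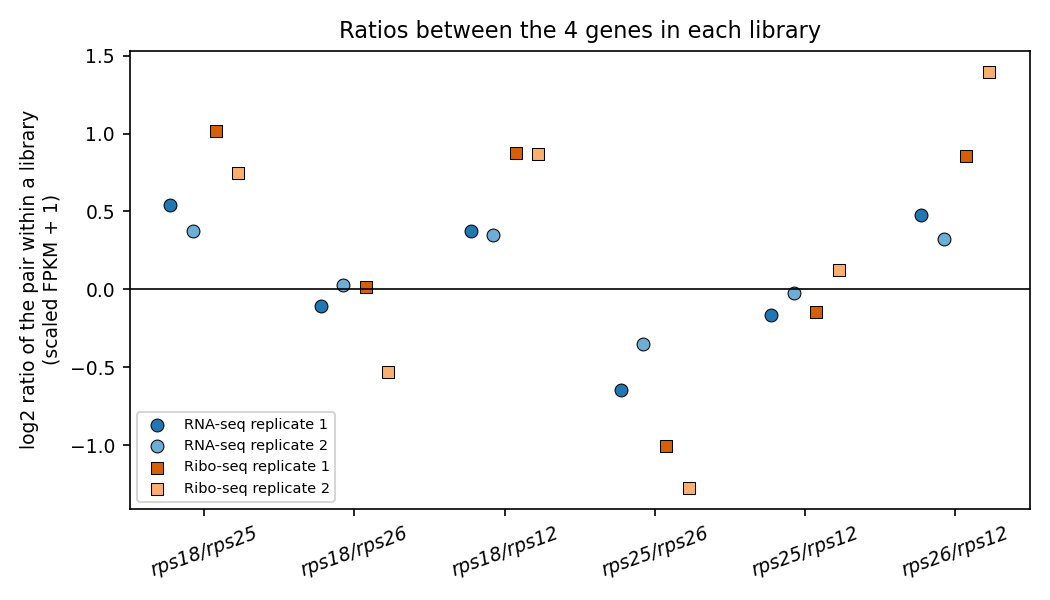
Log2 ratio of each pair of the 4 genes in each library (scaled FPKM plus 1); circles are RNA-seq and squares Ribo-seq. The ratios of rps18 and rps26 to rps25 or rps12 lie farther from 0 in both Ribo-seq replicates than in both RNA-seq replicates.

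The order of levels between the genes depends on the length used. In all 4 libraries, among the lengths kept for the line, the value of 1 read followed the model's length less about 201 nt. Those lengths were picked with a preset offset close to this, so the offset was in part assumed. On that footing the same length correction lies behind the FPKM of both assays. The correction cancels in the difference between the assays of 1 model, apart from the pseudocount. Between models it does not cancel: the length that remains is 65.3% of the model for rps26, against 82.9% for rps18, 83.8% for rps25 and 84.6% for rps12. With the full model length instead, a choice made after seeing the data, scaled RNA-seq levels were 55.6 and 57.1 (same unit, over the full length) for rps18 and 47.2 and 44.2 for rps26. They were 43.6 and 45.5 for rps12 and 38.4 and 44.2 for rps25. rps18 was then above rps26 in both RNA-seq replicates, and rps26, rps12 and rps25 lay close together. In Ribo-seq, rps18 (74.2 and 79.5) and rps26 (57.9 and 90.7) stayed above rps12 (41.0 and 44.1) and rps25 (36.6 and 47.6) in each replicate.

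Across the 25 small subunit genes, longer models had lower FPKM. Spearman's rho between model length and mean FPKM was -0.77 in RNA-seq and -0.65 in Ribo-seq (Pearson's r -0.65 and -0.47). With the log2 difference between the assays the rho was 0.11 (r 0.22). These are descriptions over genes that share their libraries. The spans of rps25 and rps12 run beyond their genes, and levels of the 4 genes as printed are those of the models. The rho of the share of the span covered by the gene with the log2 difference was 0.36 (r 0.33), and the part of such cover in the lower values of rps25 and rps12 was not tested. Cover was below 60% for 3 of the 25 genes: rps25, rps12 and rps13. The rps13 model, with 59.5% cover, had a difference of 0.84.

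**Figure D4:**
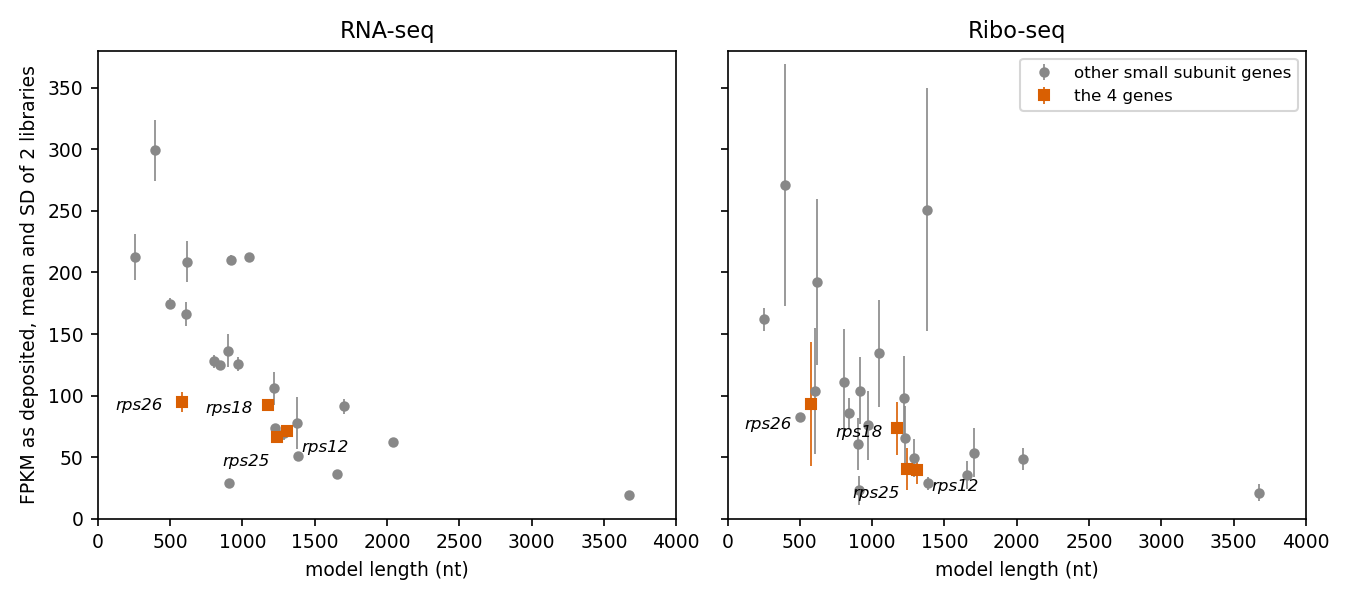
Mean deposited FPKM (bars: SD of 2 libraries) against model length for the 25 small subunit genes in RNA-seq and Ribo-seq. rps26 has a model of 580 nt, and rps25 and rps12 lie close together at 1238 and 1308 nt.

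Most of the small subunit genes lay close to these 4. Of the 25 genes, all of which passed the filter, 7 were called higher in Ribo-seq, 0 lower and 18 neither, with a median log2 difference of 0.36 against -0.20 for all tested models and 0.77 for the named ones. Beside these counts, 23.9% of all tested models were called higher and 33.7% lower, and 52.4% and 6.02% of the named ones. Of these genes 23 lay below the median of the named models, a count that depends on the filter. That median was 0.52 with no filter and 1.13 with a mean FPKM of at least 5. rps26 ranked 4 from the top, rps18 10, rps25 19 and rps12 22. The lowest were rps23, near the decoding site, at -0.39 ± 0.17 (SE) and rps14 at -0.26 ± 0.23, neither of which passed the test. The highest were rps10 at 0.71 ± 0.14, rps13 at 0.84 ± 0.14 and rps3, which lines the entry of the message channel, at 2.45 ± 0.24, and all 3 were called (limma, adjusted p = 0.017, 0.012 and 0.0042). rps3 had 92.8 and 62.8 FPKM in RNA-seq and 181 and 321 in Ribo-seq, and it was the only one of the 25 called higher with FPKM as deposited, where rps14 was the only one called lower. The count of higher calls changed when 1 library was left out, and so did the count over all tested models.

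**Figure D5:**
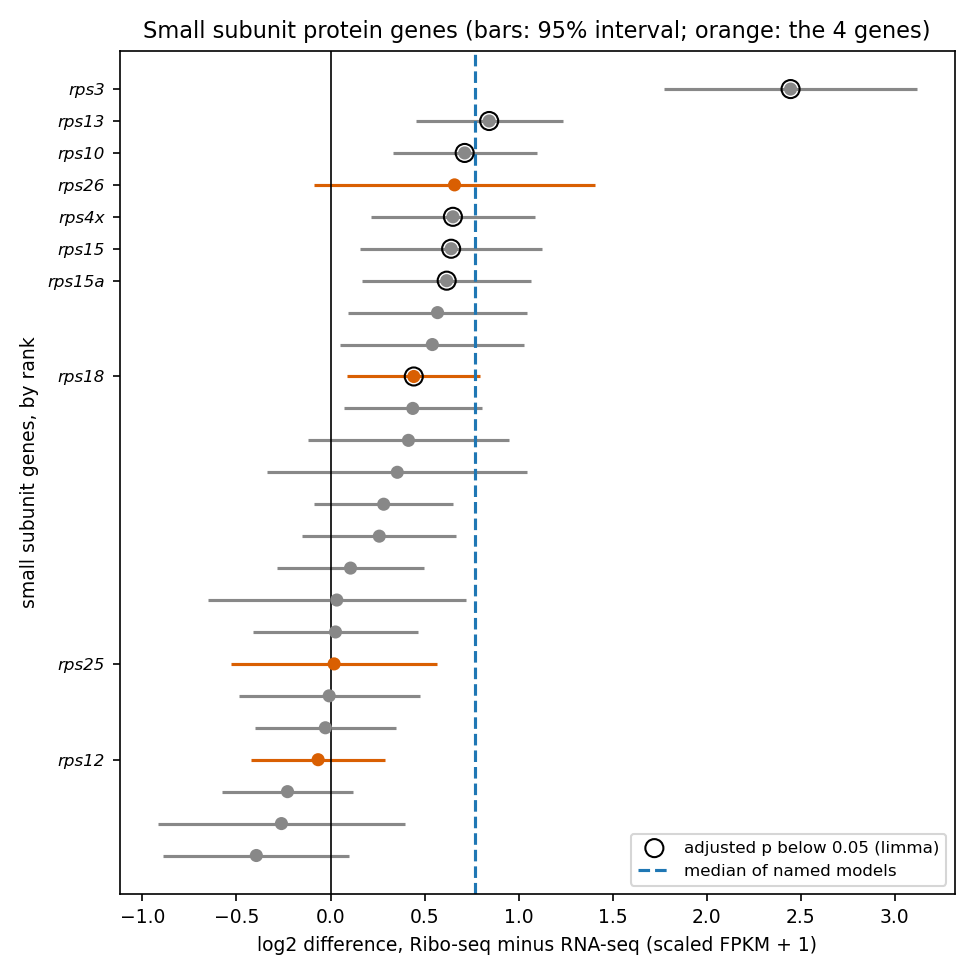
Log2 difference between Ribo-seq and RNA-seq for the 25 small subunit genes with 95% intervals from limma; names are given for the 4 genes, in orange, and for the genes called, circled points have an adjusted p below 0.05, and the dashed line is the median of named models, 0.77. rps18 and rps26 lie above the median of the 25 genes, 0.36, at 0.44 and 0.66, and rps25 and rps12 below it at 0.02 and -0.07.

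Other parts of the translation machinery gave the frame for these values. The counts below stand beside 23.9% of all tested models and 52.4% of the named ones called higher, and 33.7% and 6.02% lower. As deposited these shares were 4.79% and 8.42% higher, and 41.8% and 10.9% lower. Of the 37 tested genes of the large subunit, 12 were called higher, 2 lower and 23 neither, with a median of 0.28. As deposited the balance turned, with 0 higher and 4 lower at a median of -0.52. Of the 22 tested proteins of the small subunit of the mitochondrial ribosome, which translates the messages of the organelle, 21 were called higher, 0 lower and 1 neither. Their median was 1.47 and their lowest value, that of mrps22, was 0.69, above the value of each of the 4 cytosolic genes, though within the error of rps26. With FPKM as deposited 5 mitochondrial genes were called higher and 0 lower, at a median of 0.77, against -0.42 for the cytosolic small subunit. No test compared the mitochondrial with the cytosolic genes. The mitochondrial genes had far lower RNA, with a median of 5.51 and 5.60 FPKM in the RNA-seq replicates against 100.9 and 95.7 for the cytosolic small subunit list. For the large subunit 37 of 54 symbols were matched to a model, for the mitochondrial list 22 of 28 and for elongation factors 3 of 15. Of these 3 elongation factor genes, all tested, 2 were called higher and 0 lower at a median of 0.67. As deposited 0 of them were called in either direction, at a median of -0.13.

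Genes with the most similar values were mostly ribosomal proteins. Likeness was the Euclidean distance over the 4 libraries of log2 scaled FPKM plus 1, over 5697 other named models. This distance depends on the level of a model as well as on its pattern. The share of ribosomal proteins among models at such high levels was not counted. Nearest to rps26 were rpl21 (distance 0.14), rpl28 (0.21) and rpl10a (0.26), all of the large subunit. rpl21 had 99.7 and 88.7 FPKM in RNA-seq and 56.5 and 116.9 in Ribo-seq, and its Ribo-seq ratio of replicate 2 to replicate 1 was 1.45 after scaling. That ratio was 1.60 for rpl28 and 1.34 for rpl10a. Nearest to rps18 were rpl8 (0.20), rpl15 (0.34) and ogt, the enzyme that adds N-acetylglucosamine to proteins (0.39). rps25 and rps12 were each other's nearest model, at a distance of 0.25. For both, trafd1 (0.43 from rps25 and 0.30 from rps12) and rpl23 (0.48 and 0.41) followed. The trafd1 model is 342 nt long.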

How the data were processed

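Values were FPKM deposited by the authors for each of 4 libraries, per the file headers. TopHat2 2.1.0 and Cufflinks 2.2.1 are named in the submitters' processing notes without their roles, and the build is not given in the sources used here. The deposited length of each model is in nt. Models took a RefSeq symbol (assembly ASM223467v1) where the overlap reached 50% of both spans, with 1 best model per gene. This named 7237 models. Of model ends, 2137 lay within 10 bp of a protein-coding gene end, against 62 and 58 after moving models by 20 kb up or down.

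Tests used limma 3.58.1 (R 4.3.3; moderated with a trend; assay as the single term, pseudocount 1). The fit was also run on simulated data with few changed models and equal spread in both assays. That run does not show how the test performs on these data. The rest used scipy 1.17.1, pandas 2.3.3 and numpy 2.4.6 under Python 3.11.15. Reads were estimated from the most frequent nonzero value at each model length. A count test was not run, since only 21.6 to 50.2% of low values were within 0.02 of whole reads.

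The 4 genes and all lists were chosen with earlier results of these data known. Named were the 4 genes, the 3 lowest and 3 highest small subunit genes, and the 3 nearest models of each of the 4; 1 gene of these is not reported here. Factors were medians of a library's ratios to the geometric mean, over 52656 models. Alternatives covered scaling, pseudocount, filter, replicate block and each library left out.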

Additional observations from a re-analysis of the deposited data

How the results depend on the processing

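Alternatives changed 1 choice at a time. With FPKM as deposited, the differences of rps18, rps25 and rps26 turned to -0.36, -0.77 and -0.14. Upper quartile scaling gave 0.19 for rps18, no longer called, and -0.24 for rps25. Leaving out 1 library gave 0.39 to 0.49 for rps18, -0.17 to 0.20 for rps25 (-0.08 without RNA-seq replicate 1 and -0.17 without Ribo-seq replicate 2) and 0.34 to 0.98 for rps26; a lone library is then assumed to vary like the others. rps12 kept its sign and stayed uncalled in all 10 alternatives.

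All models called higher numbered 12116, or 2425 as deposited and 1638 to 14700 without 1 library. Those called lower numbered 17048, or 29544 with no filter, 4477 with the filter raised to 5 and 9279 to 18988 without 1 library. Small subunit genes called higher numbered 1 as deposited, 3 with upper quartile scaling and 0 to 10 without 1 library; those called lower numbered 1, 2 and 0 to 1. Large subunit genes called higher numbered 0 as deposited and 0 to 16 without 1 library. Those called lower numbered 4 as deposited, 5 with upper quartile scaling, 1 with the replicate block and 0 to 3 without 1 library. The low end of the ranges without 1 library came from leaving out an RNA-seq replicate, for every count but that of small subunit genes called lower. Without 1 library, the spread between libraries was estimated from the pair of the other assay, moderated over all models. The part of this in the shifts, and their cause, was not tested.

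The replicate block left the difference of rps18 at 0.44, no longer called. Replicate numbers are not stated to pair the samples; deviations of same-numbered libraries correlated at 0.068 over 50625 models. The change of the ratio of rps18 to rps26 ranged from -0.49 to 0.055 without 1 library, and that of rps25 to rps12 from -0.049 to 0.22. With the full model length, rps18 over rps26 turned to 0.30 on the log2 scale in RNA-seq and 0.083 in Ribo-seq.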
